A study of Mus musculus with 17 samples.

Results

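The 5 complexes of oxidative phosphorylation were followed through their nuclear-encoded subunits in whole blood of mice 24 h after total-body X-rays. Members were the genes whose symbol begins with Nduf followed by the letter a, b, c, s or v and a digit, the genes Sdha to Sdhd, those beginning with Uqcr or Atp5, and those beginning with Cox4 to Cox8, read from the probe sets to which the platform annotation gives a single symbol. They numbered 81 of 18193 genes so named: 35 in complex I, 4 in complex II, 8 in complex III, 17 in complex IV and 17 in complex V, with Ndufa4 and Ndufa4l2 counted in complex I by symbol. Each gene was read on its brightest probe set, by the mean of all 17 arrays. A gene was tested when that probe set lay above the median of its own array on at least 4 arrays, and 75 of the 81 members passed, all but Ndufb4 of complex I and Cox4i2, Cox7a1, Cox7b2, Cox7c and Cox8b of complex IV.

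All animals were unmodified female C57BL/6JJcl mice of 8 weeks, an inbred laboratory strain, and each gave 1 Affymetrix expression array. They form a dose series of 5 unirradiated mice (0 Gy, control) and 4 mice each at 0.5, 1.0 and 3.0 Gy. Values are the deposited log2 levels, and group errors are SDs (n = 5 for control, n = 4 for each dose), while errors of changes are limma's standard errors (SE). The labels call the arrays biological replicates, and p-values measure the spread between these mice only.

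Oxidative phosphorylation moves electrons along the inner mitochondrial membrane and uses the proton gradient this builds to make ATP. Complex I takes electrons from NADH and complex II from succinate, both pass them through ubiquinone to complex III, cytochrome c carries them to complex IV, where oxygen is reduced, and the returning protons turn complex V, the ATP synthase. Each complex except complex II mixes subunits encoded in the nucleus with others encoded in mitochondrial DNA, so both genomes contribute to the same enzymes. In blood, white cells, platelets and reticulocytes hold mitochondria and mature red cells do not. Whole blood was measured in bulk, so fewer cells of a type and less RNA per cell cannot be told apart in any result given here.

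Many promoters of nuclear respiratory genes hold the recognition sequence of NRF-1, a transcription factor of mitochondrial biogenesis. The letters GCGC, any 2 bases and GCGC again were searched as a short form of that sequence; they equal their own reverse complement, so both strands were covered, and no other motif was searched. RefSeq promoter sequences of build GRCm38.p6, running from 250 bases before to 50 bases after each transcript start, were found for 66 of the 81 members. Of these, 16 (24.2%) held a match, against 1358 of 10170 (13.4%) of all genes tested on the arrays and 1891 of 27025 (7.0%) of all genes in the promoter table. By complex, matches were in 6 of 31 promoters of complex I (19.4%), 2 of 3 of complex II (66.7%), 1 of 5 of complex III (20%), 1 of 12 of complex IV (8.33%) and 6 of 15 of complex V (40%). Among members called lower at 3.0 Gy, 14 of 41 promoters (34.1%) held a match, against 1 of 16 (6.25%) among tested members without a call at that dose and 0 of 4 among those called higher. Matches were not counted for all genes called lower at 3.0 Gy, and a link between match and change was not tested. These are counts of letters, and no binding was measured. Windows of 60 bases of the promoter are shown for 6 members of complexes I, II, IV and V that hold a match and were called lower at 1.0 or 3.0 Gy, with the match in capitals, all on the minus strand and read 5′ to 3′. The order is Ndufa8 at chr2:36049339-36049398, Sdhd at chr9:50603894-50603953, Cox6a1 at chr5:115349086-115349145, Atp5c1 at chr2:10080433-10080492, Atp5g2 at chr15:102671055-102671114 and Atp5k at chr5:108434415-108434474.
Ndufa8: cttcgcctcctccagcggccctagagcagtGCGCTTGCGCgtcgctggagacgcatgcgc
Sdhd: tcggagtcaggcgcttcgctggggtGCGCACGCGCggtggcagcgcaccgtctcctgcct
Cox6a1: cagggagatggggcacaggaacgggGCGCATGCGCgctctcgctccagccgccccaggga
Atp5c1: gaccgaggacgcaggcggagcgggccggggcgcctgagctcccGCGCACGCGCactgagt
Atp5g2: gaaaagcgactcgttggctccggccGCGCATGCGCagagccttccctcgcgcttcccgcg
Atp5k: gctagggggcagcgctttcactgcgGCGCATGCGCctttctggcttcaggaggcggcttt

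Subunit genes called at any of the doses were mostly lower than in control, and calls were already made at the lowest dose. At 0.5 Gy, 32 of 75 members (42.7%) were called lower and 0 higher than control, where a call is an adjusted p under 0.05 in limma, against 5% lower and 5.24% higher over all 12696 genes tested. At 1.0 Gy, 36 (48%) were lower and 1, Cox5a, was higher, against 8.49% and 8.8% of all genes. At 3.0 Gy, 47 (62.7%) were lower and 5 (6.67%) higher, against 29.2% and 20% of all genes, so that the share called higher was below that of all genes. Median log2 changes of the members were -0.42, -0.46 and -0.54 at 0.5, 1.0 and 3.0 Gy, beside -0.02, -0.04 and 0.04 over all genes. At an unadjusted p under 0.05, 1 member was higher at 0.5 Gy. Counting both directions, 10.2%, 17.3% and 49.1% of all genes were called at these doses. All 3 comparisons share the 5 control arrays.

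For part of the members the irradiated and control arrays did not overlap at all. Every 0.5 Gy array was below every control in 13 members, every 1.0 Gy array in 20 and every 3.0 Gy array in 37, against 4.54%, 6.38% and 22.9% of all genes. Every array was above every control in 1 member at 0.5 Gy (Cox5a), 0 at 1.0 Gy and 2 at 3.0 Gy (Cox5a and Ndufs4), against 6.66%, 7.88% and 14.2% of all genes.

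Single arrays weighed most on the lowest dose. The count at 0.5 Gy was 11 without 0.5 Gy replicate 1, 13 without 0.5 Gy replicate 3, 20 without 0.5 Gy replicate 4, 16 without control replicate 4 and 21 without control replicate 1, and it was 45 without control replicate 2. Calls that were lower in all 17 fits leaving out an array numbered 10 at 0.5 Gy, 27 at 1.0 Gy and 41 at 3.0 Gy. Shares of all genes in these fits are not given here, so whether this loss of calls is particular to the members cannot be told. Higher calls at 3.0 Gy numbered 3 without 3.0 Gy replicate 3, and the call of Cox5a at 1.0 Gy was lost without 1.0 Gy replicate 3 or 4, with a highest adjusted p of 0.074. An F test for a change at any dose called 63 of 75 members (84%), against 48.2% of all genes.

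**Figure D1:**
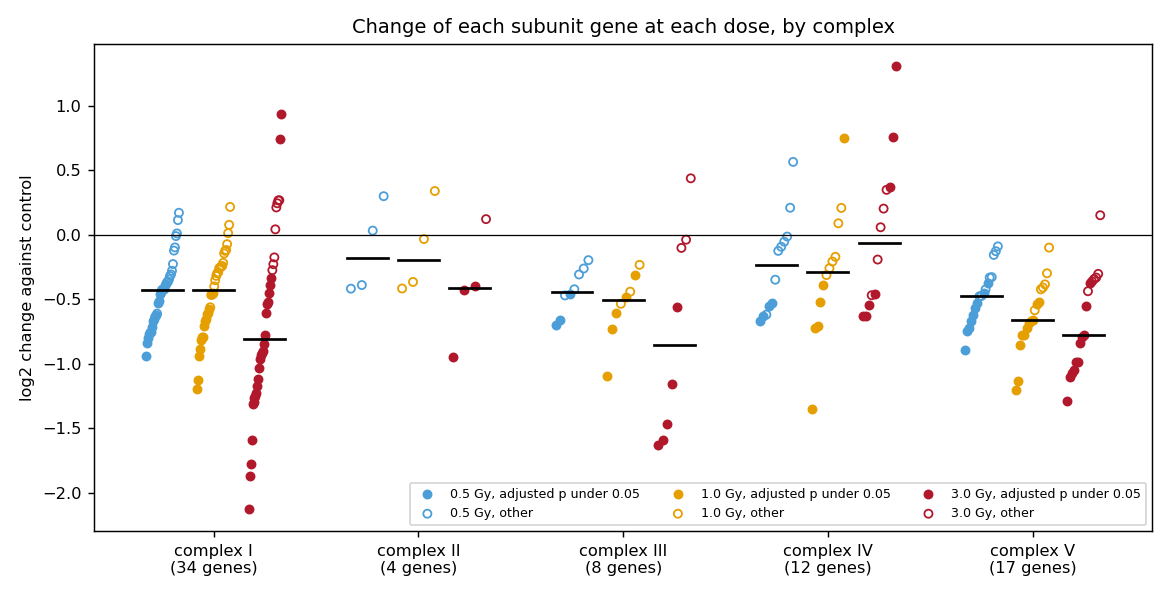
Log2 change against control (vertical axis) of the 75 tested subunit genes, grouped by complex along the horizontal axis and, within each complex, by dose in the order 0.5, 1.0 and 3.0 Gy. Filled points have an adjusted p under 0.05 in limma, and black bars are medians, which at 3.0 Gy were -0.81, -0.41, -0.86, -0.07 and -0.78 for complexes I to V.

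Complexes II and IV had smaller median changes than the other 3 at each dose. Complex I had 16, 15 and 24 of 34 genes called lower at 0.5, 1.0 and 3.0 Gy, with medians of -0.43, -0.43 and -0.81. Complex III had 3, 5 and 5 of 8 (medians -0.44, -0.51 and -0.86) and complex V had 9, 11 and 11 of 17 (medians -0.48, -0.67 and -0.78). Complex II had 0, 0 and 3 of 4, with medians of -0.18, -0.20 and -0.41; at an unadjusted p under 0.05, 2 of its genes were lower at 0.5 Gy, and 2 were lower and 1 higher at 1.0 Gy. Complex IV had 4, 5 and 4 of 12 called lower, with medians of -0.24, -0.29 and -0.07, and 0, 1 and 3 called higher. At 3.0 Gy these are 33.3% lower and 25% higher, close to the 29.2% and 20% of all genes. The difference between complexes was not tested, because genes are not replicates of a complex.

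On single arrays, the mean of the complex V genes minus the control mean lay between -0.65 and -0.62 at 1.0 Gy, a narrow band beside the control arrays, which spread from -0.45 to 0.34. The band is one of the mean only, since parts of complex V spread more widely at that dose. Its small membrane subunits ran from -1.24 to -0.42, its F1 part from -0.72 to -0.46, its subunit c from -0.85 to -0.27 and its peripheral stalk from -0.65 to -0.45. At 3.0 Gy the complex V arrays lay between -0.72 and -0.61. For complex I the arrays lay between -0.61 and -0.26 at 0.5 Gy, between -0.53 and -0.36 at 1.0 Gy and between -0.76 and -0.62 at 3.0 Gy. All 3.0 Gy arrays of complexes I, II, III and V were under every control array, while the complex IV arrays at 3.0 Gy, from -0.22 to 0.20, overlapped the controls. Control replicate 2 was the lowest control array for each of the 5 complexes, and its distance from the other controls is part of the spread in every comparison.

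**Figure D2:**
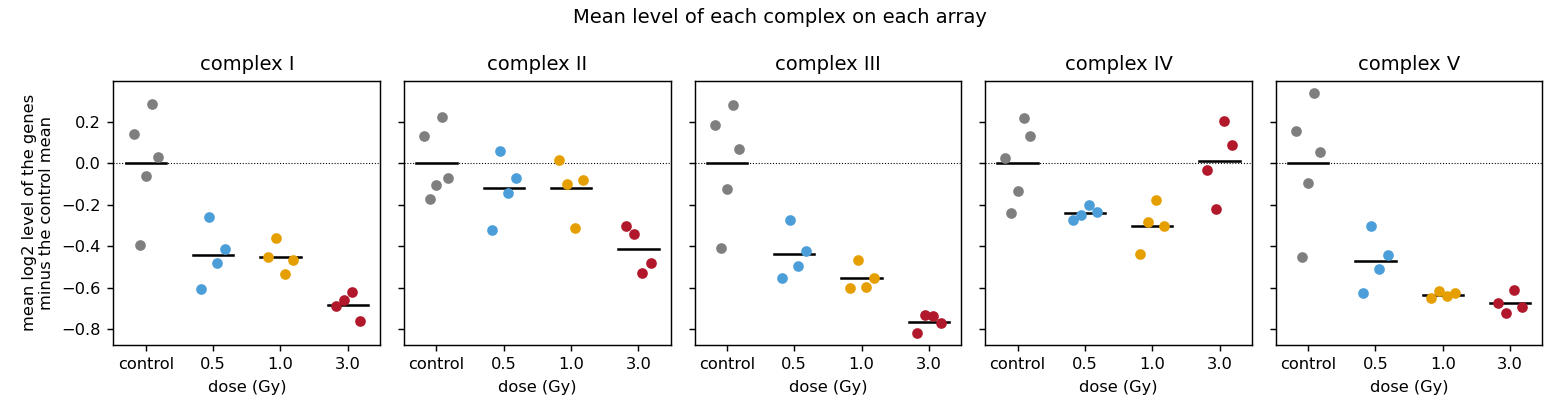
Mean log2 level of the tested genes of each complex on each of the 17 arrays, as the difference from the mean of the 5 control arrays (vertical axis), against dose in Gy (horizontal axis). Points are arrays and bars are group means; complex I averages -0.44, -0.45 and -0.68 at 0.5, 1.0 and 3.0 Gy, and complex IV at 3.0 Gy averages 0.01.

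Between 3.0 and 1.0 Gy members were called both ways, each share being a little above that of all genes. Between 1.0 and 0.5 Gy no member was called, and only 2 of all genes were. With the level of the 18S ribosomal RNA control probe sets as a term in the fit, 0 members were called lower and 0 higher between 3.0 and 1.0 Gy. Between 1.0 and 0.5 Gy limma called 0 of 75 members lower and 0 higher, against 0.0158% and 0% of all genes, and at an unadjusted p under 0.05 there were 8 lower and 0 higher. Between 3.0 and 1.0 Gy, 23 members (30.7%) were lower and 17 (22.7%) higher, against 22.7% and 15.9% of all genes, or 38.6% in both directions. Complex I had 12 lower and 5 higher between these doses, complex II 2 and 0, complex III 4 and 3, complex IV 0 and 5, and complex V 5 and 4. At an unadjusted p under 0.05, 1 complex IV gene was lower in limma. Without 1.0 Gy replicate 1 the higher count was 6, without 1.0 Gy replicate 2 it was 11, and without 3.0 Gy replicate 3 or 4 it was 8 or 10. Of the 36 members called lower at 1.0 Gy, 9 were lower still at 3.0 than at 1.0 Gy, 7 were higher and 20 had no call between the 2 doses. The group mean was lowest at 3.0 Gy in 37 members, at 1.0 Gy in 25, at 0.5 Gy in 9 and in controls in 4. Neither of these splits was counted over all genes, so whether they are particular to the members cannot be told.

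Between 3.0 and 0.5 Gy, 26 members (34.7%) were lower and 8 (10.7%) higher, against 20.9% and 12.9% of all genes. The lower count was 17 without 0.5 Gy replicate 2, and the higher count was 2 or 3 without 3.0 Gy replicate 3 or 4. A slope on dose over all 17 arrays called 36 members lower and 5 higher with dose, against 27.5% and 19.9% of all genes.

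**Figure D3:**
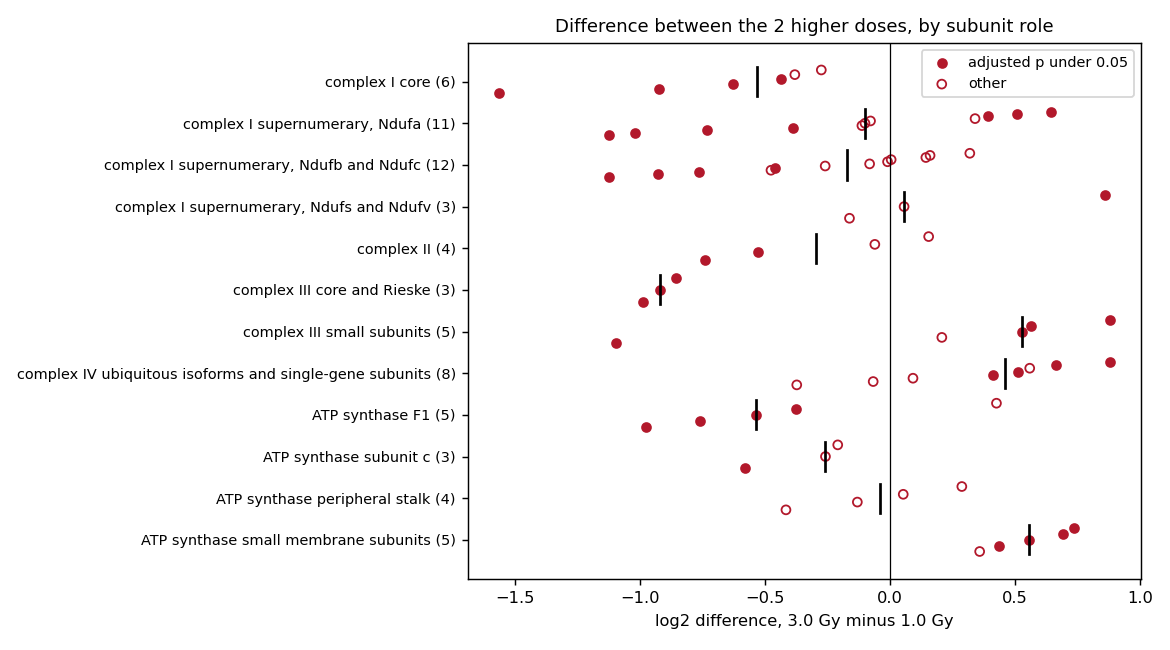
Log2 difference between 3.0 and 1.0 Gy (horizontal axis) of the tested subunit genes, in rows by role, with the number of genes in parentheses; the Ndufa4 family, Cox7a2l and the tissue-restricted isoforms of complex IV are not drawn. Filled points have an adjusted p under 0.05 in limma, and black bars are medians; the medians are -0.92 for the core and Rieske subunits of complex III, -0.54 for the F1 part of ATP synthase and 0.55 for its small membrane subunits.

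Complex I begins with 6 core subunits measured here, which carry the flavin and the iron-sulphur clusters of the electron path and its contact with ubiquinone. All 6 were lower at 3.0 Gy than in control, with a median of -0.91, in each of the 17 fits leaving out an array, while 2 of 6 were called lower at 0.5 Gy and 2 at 1.0 Gy. Ndufs3, a core subunit of the peripheral arm, fell most of all 75 members. Ndufs3 read 7.39, 6.63, 7.21, 7.25 and 7.07 in control mice, 6.10, 6.95, 6.30 and 6.54 after 0.5 Gy, 6.79, 6.92, 6.03 and 6.44 after 1.0 Gy and 5.23, 6.03, 4.48 and 4.18 after 3.0 Gy. Every 3.0 Gy array was below every control array, and 3.0 Gy replicate 2 was the nearest to them. The change at 3.0 Gy was -2.13 ± 0.29 (SE, limma adjusted p = 6.53e-06), 4.37-fold lower, and the difference from 1.0 Gy was -1.57 ± 0.30 (adjusted p = 0.000762).

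Ndufs1, the largest core subunit, holds several of the iron-sulphur clusters. Ndufs1 measured 5.82, 5.06, 5.12, 5.29 and 4.81 in control mice, 4.80, 5.44, 5.17 and 5.08 after 0.5 Gy, 5.28, 5.28, 5.01 and 5.37 after 1.0 Gy and 4.08, 4.28, 4.62 and 4.24 after 3.0 Gy. The 0.5 and 1.0 Gy arrays lay within or close to the control range, and all 3.0 Gy arrays lay below it. Its changes were -0.10 ± 0.17, 0.01 ± 0.17 and -0.92 ± 0.17 at 0.5, 1.0 and 3.0 Gy, with limma adjusted p = 0.817, 0.974 and 0.00022. Ndufv1, the flavoprotein that oxidises NADH, was called lower at all 3 doses, with -0.42 ± 0.12, -0.46 ± 0.12 and -0.90 ± 0.12 (limma adjusted p = 0.0298, 0.0107 and 5.84e-06). Its call at 0.5 Gy was lost without 6 single arrays, control replicates 2, 3 and 4 and 0.5 Gy replicates 1, 3 and 4, with an adjusted p of up to 0.096.

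Supernumerary subunits surround this core and stabilise the complex. Of 12 tested genes of the Ndufb and Ndufc type, most of them in the membrane arm, 9, 8 and 9 were called lower at 0.5, 1.0 and 3.0 Gy. Of 11 of the Ndufa type, 4, 4 and 7 were called lower. Ndufb11, a small subunit of the membrane arm, was low at each dose. Ndufb11 had levels of 9.59, 8.95, 9.24, 9.73 and 9.46 in control mice, 8.57, 8.73, 8.65 and 8.61 after 0.5 Gy, 8.49, 8.54, 8.48 and 8.54 after 1.0 Gy and 8.51, 8.36, 8.38 and 8.46 after 3.0 Gy. No irradiated array reached the lowest control array, and the 12 irradiated arrays lay close together. Its changes of -0.75 ± 0.12, -0.88 ± 0.12 and -0.97 ± 0.12 had limma adjusted p = 0.000469, 3.58e-05 and 3.51e-06, and no difference between doses was called.

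Ndufc2 and Ndufb5, also of the membrane arm, were called lower at every dose, and lower at 3.0 than at 1.0 Gy; with the 18S ribosomal RNA level as a term in the fit, this last difference became 0.012 in Ndufc2 and 0.13 in Ndufb5, with no call. Ndufc2 stood at 7.91, 7.21, 7.75, 8.24 and 7.69 in control mice, 6.68, 7.39, 6.83 and 6.91 after 0.5 Gy, 6.90, 6.88, 6.58 and 6.93 after 1.0 Gy and 6.05, 6.51, 5.54 and 5.47 after 3.0 Gy. The 1.0 and 3.0 Gy arrays were all below the controls, and the 0.5 Gy arrays overlapped them through replicate 2. Ndufc2 changed by -0.81 ± 0.21, -0.94 ± 0.21 and -1.87 ± 0.21 (limma adjusted p = 0.018, 0.00349 and 8.45e-07), and its 0.5 Gy call was lost without control replicate 4 or without 0.5 Gy replicate 1, 3 or 4, with an adjusted p of up to 0.077. Ndufb5 changed by -0.94 ± 0.21, -0.65 ± 0.21 and -1.78 ± 0.21 (limma adjusted p = 0.00609, 0.0363 and 1.33e-06). Its 1.0 Gy call was lost without 7 single arrays, control replicates 1, 3, 4 and 5 and 1.0 Gy replicates 2, 3 and 4, with an adjusted p of up to 0.0996.

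In Ndufa5 and Ndufa6, supernumerary subunits of the peripheral arm, most of the change at 3.0 Gy was already present at 1.0 Gy. Ndufa5 changed by -0.77 ± 0.19, -1.20 ± 0.19 and -1.31 ± 0.19 and Ndufa6 by -0.84 ± 0.18, -1.13 ± 0.18 and -1.23 ± 0.18 at the 3 doses, all called in limma (adjusted p between 1.2e-05 and 0.0116). For both, no difference was called between 3.0 and 1.0 Gy, at -0.11 ± 0.20 and -0.10 ± 0.19 (limma adjusted p = 0.661 and 0.69). In Ndufa12, Ndufa9 and Ndufb10 most of the change came at 3.0 Gy, by -1.59 ± 0.20, -1.27 ± 0.17 and -1.12 ± 0.14. At the lower doses these 3 genes had no call but were lower too, by -0.61, -0.37 and -0.39 at 0.5 Gy and by -0.47, -0.25 and -0.35 at 1.0 Gy. Their differences between 3.0 and 1.0 Gy, -1.12 ± 0.21, -1.02 ± 0.18 and -0.76 ± 0.15, were called, with limma adjusted p = 0.000482, 0.000386 and 0.000881. With the 18S level as a term in the fit, no member was called between these doses. The 3 genes overlapped the controls at both lower doses and were below them on every 3.0 Gy array.

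A pair of complex I members moved the other way at 3.0 Gy. Ndufs4 is a peripheral-arm subunit whose loss in mice is a model of the mitochondrial disease Leigh syndrome. Ndufs4 was at 6.40, 5.86, 6.53, 6.68 and 6.57 in control mice, 6.55, 6.58, 6.70 and 6.47 after 0.5 Gy, 6.30, 6.31, 6.74 and 6.58 after 1.0 Gy and 7.29, 6.72, 7.76 and 7.61 after 3.0 Gy. All 3.0 Gy arrays were above all controls, with replicate 2 the lowest of them. The change was 0.94 ± 0.19 (limma adjusted p = 0.000382), and the difference from 1.0 Gy was 0.86 ± 0.20 (adjusted p = 0.00255). Its other 2 probe sets that passed the filter changed by 1.39 and 1.15 at 3.0 Gy, and another, which did not pass, by 0.05.

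Ndufa4 was long counted with complex I and is now known as a subunit of complex IV. Ndufa4 gave 9.27, 8.76, 9.26, 9.57 and 9.53 in control mice, 9.12, 9.28, 9.32 and 9.34 after 0.5 Gy, 8.77, 9.07, 9.55 and 9.41 after 1.0 Gy and 9.98, 9.20, 10.55 and 10.33 after 3.0 Gy. One 3.0 Gy array, replicate 2, lay among the controls and the other 3 lay above them. The change of 0.74 ± 0.22 at 3.0 Gy (limma adjusted p = 0.0107) was lost without 3.0 Gy replicate 3, at an adjusted p of 0.0534. Its relative Ndufa4l2 had no call at any dose.

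Complex II, which is also the succinate dehydrogenase of the citric acid cycle, has only nuclear-encoded subunits. Sdhb, its iron-sulphur protein, was lower at 3.0 Gy. Sdhb read 7.56, 6.99, 7.27, 7.68 and 7.28 in control mice, 6.74, 7.29, 6.86 and 6.98 after 0.5 Gy, 7.18, 7.01, 6.59 and 6.98 after 1.0 Gy and 6.59, 6.67, 6.19 and 6.19 after 3.0 Gy. The 0.5 and 1.0 Gy arrays overlapped the controls, and the 3.0 Gy arrays were all below them. The changes were -0.39 ± 0.16, -0.42 ± 0.16 and -0.95 ± 0.16, with limma adjusted p = 0.147, 0.0843 and 7.37e-05.

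Sdha, the flavoprotein that oxidises succinate, had its higher levels at 0.5 and 1.0 Gy on its brightest probe set, which is of a type that can bind related transcripts. Sdha measured 7.60, 7.25, 6.95, 7.34 and 6.86 in control mice, 7.37, 7.72, 7.37 and 7.53 after 0.5 Gy, 7.79, 7.71, 7.11 and 7.54 after 1.0 Gy and 6.82, 6.99, 6.60 and 6.78 after 3.0 Gy. Of the 3.0 Gy arrays, 3 lay below every other array, and replicate 2 lay within the control range. Its changes against control were 0.30 ± 0.16, 0.34 ± 0.16 and -0.40 ± 0.16 (limma adjusted p = 0.288, 0.162 and 0.0411). The difference between 3.0 and 1.0 Gy was -0.74 ± 0.17 (limma adjusted p = 0.00222) and was called in each fit leaving out an array, whereas the call against control was lost without control replicates 1, 2 or 4 or without 3.0 Gy replicates 1, 3 or 4, with an adjusted p of up to 0.119. Other Sdha probe sets that passed the filter changed by 0.15, 0.16 and -1.03, by -0.29, -0.42 and -0.75, and by -0.09, -0.22 and 0.10 at 0.5, 1.0 and 3.0 Gy. The direction in Sdha thus depends on the probe set. Of the membrane anchors, Sdhd changed by -0.43 ± 0.17 at 3.0 Gy (limma adjusted p = 0.0392), a call lost without control replicates 1, 4 or 5 or without 3.0 Gy replicates 2, 3 or 4 (adjusted p of up to 0.114). Sdhc changed by 0.12 ± 0.10 on its brightest probe set, which is of a type that can bind related transcripts, and by -0.77 on its other (limma adjusted p = 0.00439), so its direction depends on the probe set.

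In complex III, Uqcrc1 and Uqcrc2, the core proteins, and Uqcrfs1, the Rieske iron-sulphur protein that hands electrons to cytochrome c1, were all lower at 3.0 Gy than in control and than at 1.0 Gy, in each fit leaving out an array. Uqcrc2 had levels of 7.63, 7.13, 7.23, 7.71 and 7.22 in control mice, 6.95, 7.11, 6.81 and 6.82 after 0.5 Gy, 7.11, 6.96, 6.58 and 6.96 after 1.0 Gy and 5.75, 6.11, 5.83 and 5.97 after 3.0 Gy. In Uqcrc2 the lower doses lay just under the controls and the 3.0 Gy arrays well below every other array. It changed by -0.46 ± 0.14, -0.48 ± 0.14 and -1.47 ± 0.14 (limma adjusted p = 0.0378, 0.0199 and 1.19e-07). The first call was lost without control replicate 1 or 4 or without 0.5 Gy replicate 1, 3 or 4, and the second without control replicate 1 or 4 or without 1.0 Gy replicate 3, with adjusted p of up to 0.123 and 0.0734. Uqcrfs1 changed by -0.66 ± 0.17, -0.73 ± 0.17 and -1.59 ± 0.17 (limma adjusted p = 0.0151, 0.00419 and 4.23e-07), the 0.5 Gy call being lost without 0.5 Gy replicate 1 or 3 (adjusted p of up to 0.0665). Uqcrc1 had no call at 0.5 or 1.0 Gy and changed by -1.15 ± 0.19 at 3.0 Gy (limma adjusted p = 4.78e-05).

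Of the 5 small subunits, 2 were called lower at 3.0 Gy. Uqcrb, which lies near the site of ubiquinone reduction, changed by -1.63 ± 0.19 at 3.0 Gy (limma adjusted p = 9.96e-07) and by -1.10 ± 0.20 between 3.0 and 1.0 Gy (adjusted p = 0.000406). Uqcrh, the hinge protein beside cytochrome c1, was lowest at 1.0 Gy. Uqcrh stood at 10.69, 10.14, 10.50, 11.00 and 10.73 in control mice, 9.94, 9.96, 9.92 and 9.82 after 0.5 Gy, 8.95, 9.49, 9.95 and 9.68 after 1.0 Gy and 9.99, 9.98, 10.05 and 10.18 after 3.0 Gy. Every 0.5 and 1.0 Gy array was below every control, and at 3.0 Gy only replicate 4 exceeded the lowest control. It changed by -0.70 ± 0.17, -1.09 ± 0.17 and -0.56 ± 0.17 (limma adjusted p = 0.0114, 0.000114 and 0.0105). The difference between 3.0 and 1.0 Gy was 0.53 ± 0.18 (limma adjusted p = 0.0274), a call lost without 1.0 Gy replicate 1 or 2 or 3.0 Gy replicate 3 or 4, with an adjusted p of up to 0.117. Uqcrq, Uqcr10 and Uqcr11 had no call at 3.0 Gy, and Uqcrq and Uqcr11 were called higher at 3.0 than at 1.0 Gy.

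In complex IV the catalytic subunits are mitochondrially encoded, and the nuclear subunits measured here surround them. Cox4i1, the isoform of subunit 4 found in most tissues, was lower at all doses by about the same amount. Cox4i1 was at 10.06, 9.53, 9.91, 10.35 and 9.98 in control mice, 9.19, 9.47, 9.19 and 9.34 after 0.5 Gy, 9.40, 9.34, 9.11 and 9.14 after 1.0 Gy and 9.29, 9.26, 9.43 and 9.37 after 3.0 Gy. No irradiated array reached the lowest control array. Its changes of -0.67 ± 0.13, -0.72 ± 0.13 and -0.63 ± 0.13 (limma adjusted p = 0.00242, 0.000552 and 0.000596) were called in every fit leaving out an array, with no call between doses.

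Cox5a, a nuclear subunit on the matrix side, was the member with the largest rise. Cox5a gave 10.39, 10.30, 10.55, 10.78 and 10.93 in control mice, 11.08, 11.10, 11.12 and 11.31 after 0.5 Gy, 10.92, 11.25, 11.73 and 11.45 after 1.0 Gy and 11.99, 11.04, 12.44 and 12.11 after 3.0 Gy. Every 0.5 and 3.0 Gy array was above every control, and at 1.0 Gy replicate 1 lay just under the highest control. Its changes were 0.56 ± 0.22, 0.75 ± 0.22 and 1.31 ± 0.22, with limma adjusted p = 0.121, 0.0222 and 6.39e-05, the last 2.47-fold higher. Its other 2 probe sets changed by 1.41 and 1.17 at 3.0 Gy. Cox5b, another nuclear subunit on the matrix side, was called lower at 0.5 and 3.0 Gy.

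Cox6b1, on the side facing cytochrome c, was higher at 3.0 Gy. Cox6b1 read 9.60, 9.25, 9.39, 9.90 and 9.68 in control mice, 9.40, 9.58, 9.51 and 9.55 after 0.5 Gy, 9.50, 9.73, 9.74 and 9.64 after 1.0 Gy and 10.15, 9.75, 10.79 and 10.58 after 3.0 Gy. The 3.0 Gy arrays overlapped the controls through replicate 2, and the other 3 exceeded every array of the other groups. The change was 0.75 ± 0.17 (limma adjusted p = 0.00113), and the differences from 1.0 and 0.5 Gy were 0.67 ± 0.18 and 0.81 ± 0.18 (adjusted p = 0.00761 and 0.00193), all called in each fit leaving out an array.

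Cox6c, another small nuclear subunit, had the largest fall of all members at 1.0 Gy. Cox6c measured 10.79, 10.22, 10.58, 10.94 and 10.97 in control mice, 10.08, 10.03, 10.14 and 10.08 after 0.5 Gy, 8.66, 9.31, 9.91 and 9.53 after 1.0 Gy and 10.22, 9.82, 10.54 and 10.35 after 3.0 Gy. The 1.0 Gy arrays spread over more than 1 log2 unit and lay below the controls, and 2 of the 3.0 Gy arrays overlapped the controls. Its changes were -0.62 ± 0.20, -1.35 ± 0.20 and -0.47 ± 0.20 (limma adjusted p = 0.0596, 7.31e-05 and 0.0619), and 3.0 Gy was above 1.0 Gy by 0.88 ± 0.21 (adjusted p = 0.00389). These last 2 calls, at 1.0 Gy and between the doses, held in each fit leaving out an array.

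Several complex IV subunits have isoforms encoded by different genes. Cox6a1, the form of most tissues, was called lower at 1.0 and 3.0 Gy (-0.39 ± 0.11 and -0.46 ± 0.11, limma adjusted p = 0.0209 and 0.00245) and had -0.35 ± 0.11 at 0.5 Gy (adjusted p = 0.0574); its heart and muscle isoform Cox6a2 had no call. The 1.0 Gy call was lost without control replicate 1 or 4 or without 1.0 Gy replicate 3 or 4 (adjusted p of up to 0.0702); both were lost when the arrays were quantile normalized again, at changes of -0.09 and -0.20. Cox7a2 was called lower at 0.5 and 1.0 Gy (-0.63 ± 0.18 and -0.70 ± 0.18, limma adjusted p = 0.0266 and 0.00834) and had -0.19 ± 0.18 at 3.0 Gy (adjusted p = 0.372). Its 0.5 Gy call was lost without control replicates 1, 4 or 5 or without 0.5 Gy replicates 1, 3 or 4 (adjusted p of up to 0.0923). Cox7a2l, which encodes a related protein, was called lower at all 3 doses, with -0.55 ± 0.14, -0.52 ± 0.14 and -0.54 ± 0.14 (limma adjusted p = 0.0164, 0.015 and 0.00398), the first lost without 0.5 Gy replicate 1 or 3 (adjusted p of up to 0.0696). Cox8c, known in humans as a testis isoform, had 0.37 ± 0.14 at 3.0 Gy (limma adjusted p = 0.0358) on a probe set that can bind related transcripts, but 0.08 on its other. The call of Cox8c was lost without control replicate 1 or 4 or without 3.0 Gy replicate 1, 2 or 3, with an adjusted p of up to 0.107. Cox6b2 and Cox8a had no call against control, and Cox4i2, Cox7a1 and Cox8b were too dim to be tested.

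**Figure D4:**
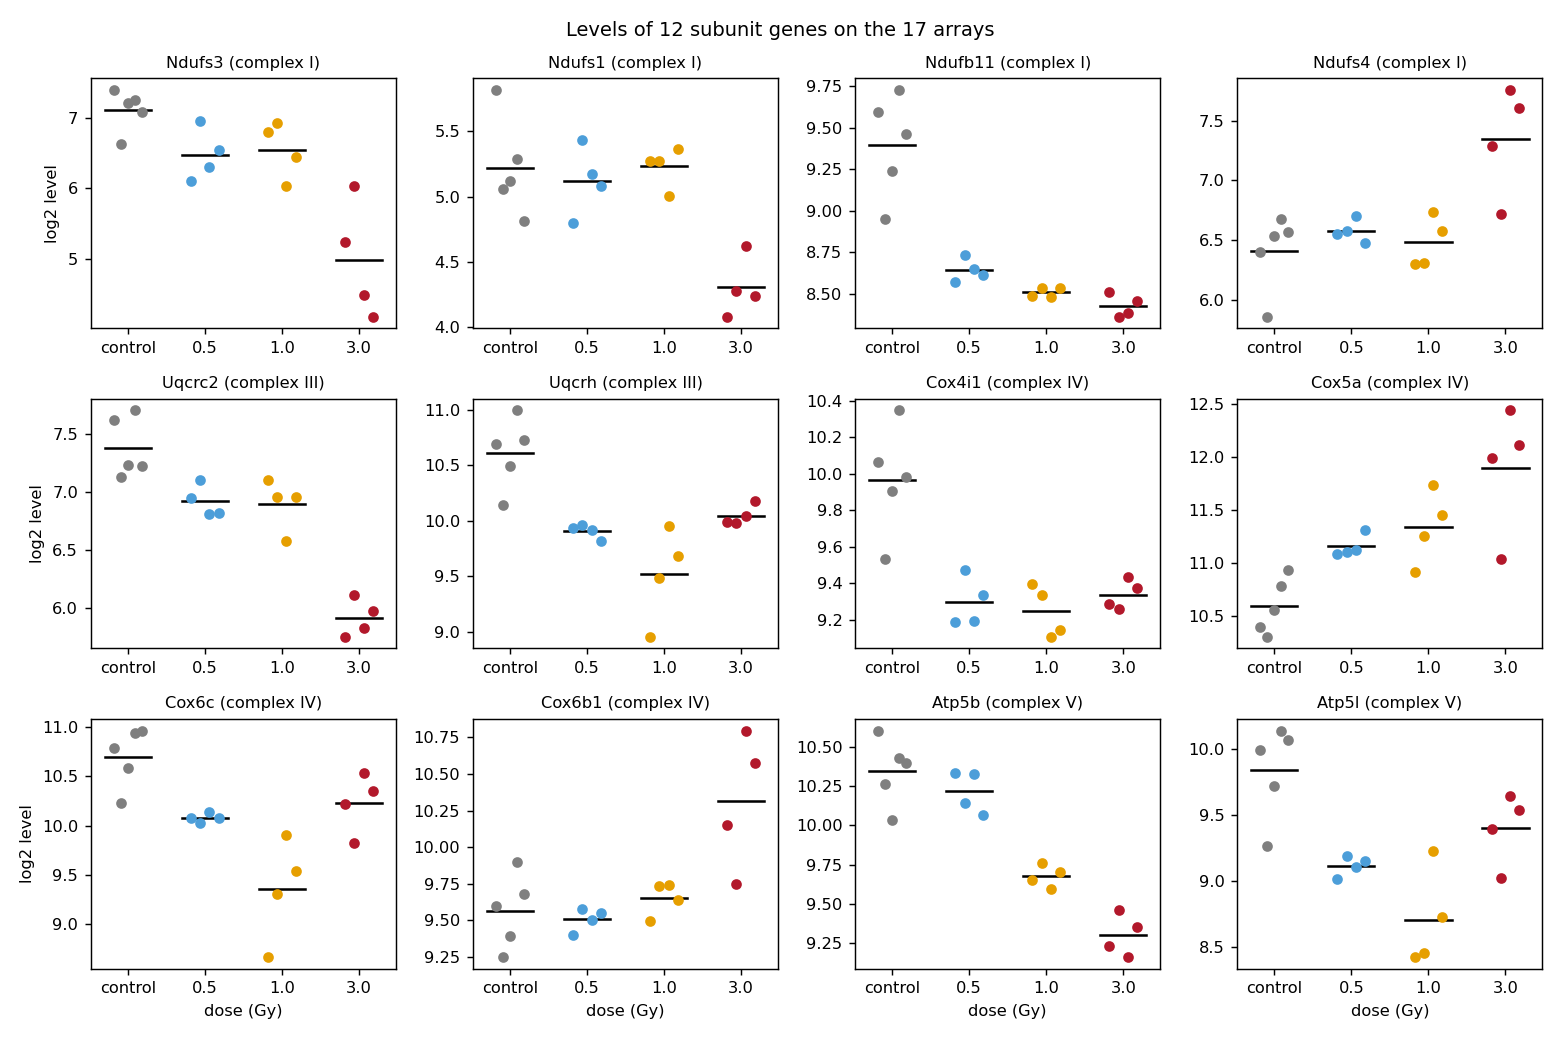
Deposited log2 level (vertical axis, own scale in each panel) of 12 subunit genes on the 17 arrays, against dose in Gy (horizontal axis). Points are arrays and bars are group means; Ndufs3, Ndufs1, Uqcrc2 and Atp5b are lowest at 3.0 Gy, Uqcrh, Cox6c and Atp5l at 1.0 Gy, and Cox5a, Cox6b1 and Ndufs4 are highest at 3.0 Gy.

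ATP synthase consists of the catalytic F1 head, a rotating ring of c subunits, a peripheral stalk and small membrane subunits. All 5 genes of the F1 head were lower at 3.0 Gy, with a median of -1.05, in each fit leaving out an array, and 2 and 3 of 5 were called lower at 0.5 and 1.0 Gy. Atp5b encodes the beta subunit, which holds the catalytic sites. Atp5b had levels of 10.60, 10.26, 10.03, 10.43 and 10.40 in control mice, 10.33, 10.14, 10.33 and 10.06 after 0.5 Gy, 9.66, 9.76, 9.59 and 9.70 after 1.0 Gy and 9.23, 9.46, 9.16 and 9.35 after 3.0 Gy. The 0.5 Gy arrays overlapped the controls, and every 1.0 and 3.0 Gy array was below them, the 3.0 Gy arrays below the 1.0 Gy arrays too. Its changes were -0.13 ± 0.11, -0.67 ± 0.11 and -1.05 ± 0.11 (limma adjusted p = 0.583, 0.000279 and 5.58e-07). The difference between 3.0 and 1.0 Gy was -0.38 ± 0.12 (limma adjusted p = 0.02), and it was lost without 1.0 Gy replicate 2 or 3.0 Gy replicate 3, with an adjusted p of up to 0.062.

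Atp5a1, the alpha subunit that alternates with beta in the head, changed at 3.0 Gy. Atp5a1 stood at 8.92, 8.38, 8.38, 8.76 and 8.39 in control mice, 8.30, 8.70, 8.42 and 8.48 after 0.5 Gy, 8.65, 8.62, 8.11 and 8.47 after 1.0 Gy and 7.65, 7.56, 7.30 and 7.44 after 3.0 Gy. The 2 lower doses overlapped the controls, and the 3.0 Gy arrays were below every other array. Its changes were -0.09 ± 0.14, -0.10 ± 0.14 and -1.08 ± 0.14, with limma adjusted p = 0.789, 0.697 and 4.51e-06. Atp5c1, the rotating gamma subunit, changed by -0.67 ± 0.17, -0.53 ± 0.17 and -1.29 ± 0.17 (limma adjusted p = 0.018, 0.0441 and 6.47e-06). Its 0.5 Gy call was lost without control replicate 4 or without 0.5 Gy replicate 1 or 3 (adjusted p of up to 0.083), and its 1.0 Gy call without any of 11 arrays (adjusted p of up to 0.139), control replicates 1, 3, 4 and 5, 0.5 Gy replicates 3 and 4, 1.0 Gy replicates 2, 3 and 4 and 3.0 Gy replicates 1 and 4.

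Atp5e, the small epsilon subunit of the rotor, differed from the rest of the head in its order of doses. Atp5e was at 9.07, 8.31, 8.91, 9.39 and 9.25 in control mice, 7.97, 8.24, 7.98 and 8.18 after 0.5 Gy, 7.60, 7.76, 7.96 and 7.82 after 1.0 Gy and 8.12, 8.30, 8.22 and 8.20 after 3.0 Gy. All 12 irradiated arrays were below the controls. The changes were -0.89 ± 0.16, -1.20 ± 0.16 and -0.78 ± 0.16 (limma adjusted p = 0.00111, 1.98e-05 and 0.00053), called in each fit leaving out an array, and the difference between 3.0 and 1.0 Gy was 0.43 ± 0.17 (adjusted p = 0.0533).

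The c ring is built from a single mature protein that 3 genes encode with different import sequences. All 3 were lower at 3.0 Gy: Atp5g1 changed by -0.79 ± 0.15, Atp5g2 by -0.99 ± 0.17 and Atp5g3 by -0.99 ± 0.16 (limma adjusted p = 0.000237, 0.000103 and 3.91e-05). Atp5g2 gave 8.43, 7.79, 8.42, 8.79 and 8.32 in control mice, 7.31, 7.97, 7.45 and 7.67 after 0.5 Gy, 7.86, 7.68, 7.35 and 7.38 after 1.0 Gy and 7.34, 7.40, 7.52 and 7.18 after 3.0 Gy. In Atp5g2, 0.5 Gy replicate 2 and 1.0 Gy replicate 1 lay above the lowest control, and no 3.0 Gy array did. Atp5g2 was also called at 0.5 and 1.0 Gy (-0.75 ± 0.17 and -0.78 ± 0.17, limma adjusted p = 0.00821 and 0.00315), and Atp5g3 was at neither (adjusted p = 0.064 and 0.085). Of the peripheral stalk, 3, 2 and 3 of 4 genes were called lower at 0.5, 1.0 and 3.0 Gy. Among them Atp5o, the subunit that joins the stalk to the head, changed by -1.10 ± 0.16 at 3.0 Gy (limma adjusted p = 1.04e-05).

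The 5 small membrane subunits, which hold synthase pairs together or sit beside the ring, showed another order of doses: 2 were called lower at 0.5 Gy, 4 at 1.0 Gy and 0 at 3.0 Gy in limma, where 3 were lower at an unadjusted p under 0.05. Of the 5, 4 were called higher at 3.0 than at 1.0 Gy, but only 1 of these calls held in each fit leaving out an array. That call was of Atp5l, the g subunit. Atp5l read 9.99, 9.27, 9.72, 10.14 and 10.07 in control mice, 9.01, 9.19, 9.11 and 9.15 after 0.5 Gy, 8.42, 8.45, 9.22 and 8.73 after 1.0 Gy and 9.39, 9.02, 9.64 and 9.54 after 3.0 Gy. Every 0.5 and 1.0 Gy array was below every control, and at 3.0 Gy only replicate 2 was. Its changes were -0.72 ± 0.18, -1.13 ± 0.18 and -0.44 ± 0.18 (limma adjusted p = 0.0148, 0.000165 and 0.0542), the first lost without 0.5 Gy replicate 1 (adjusted p = 0.053), and the difference between 3.0 and 1.0 Gy was 0.69 ± 0.19 (adjusted p = 0.00972). Of the others, 2 are given after their values were seen: Atp5mpl changed by -0.86 ± 0.16 at 1.0 Gy and -0.30 ± 0.16 at 3.0 Gy (limma adjusted p = 0.000615 and 0.117) and Atp5k by -0.78 ± 0.14 and -0.34 ± 0.14 (adjusted p = 0.000588 and 0.0537).

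Markers of blood cells and 18S ribosomal RNA moved with the doses as well. Platelet and megakaryocyte markers were called higher at all 3 doses in 25 of 25 genes, and their mean lay 1.33, 1.71 and 1.83 above control at 0.5, 1.0 and 3.0 Gy. B cell markers were called lower in 1, 1 and 16 of 17 genes, with mean differences from control of -0.42, -0.33 and -2.69, and T cell markers in 2, 3 and 11 of 15, with mean differences of -0.26, -0.34 and -1.26. Neutrophil markers were called higher in 0, 1 and 10 of 15 genes and lower in 1, 2 and 0. Red cell and reticulocyte markers were lower in 7, 10 and 14 of 22 and higher in 1, 1 and 5, monocyte markers lower in 3, 1 and 6 of 12 and higher in 1, 2 and 1, and NK cell markers lower in 1, 1 and 3 of 11 and higher in 0, 2 and 0. Of all genes, 5%, 8.49% and 29.2% were called lower and 5.24%, 8.8% and 20% higher at these doses. The lower counts of B cell markers at 0.5 and 1.0 Gy and of NK cell markers at 3.0 Gy are near those shares. The red cell, platelet, B cell and T cell lists each had a mean level in controls between 7.29 and 8.74, so that the markers of the labelled tissue were present.

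Control probe sets for 18S averaged 10.5 ± 0.486 without irradiation, 12.7 ± 0.766 after 0.5 Gy, 13.3 ± 0.276 after 1.0 Gy and 10.7 ± 0.141 after 3.0 Gy. In two-sided exact permutation tests over 126 regroupings the p against control was 0.00794, 0.00794 and 0.587, of which 0.00794 is the smallest possible. Of the 4 groups, 18S was highest at 1.0 Gy. At 3.0 Gy the mean levels of the B cell, T cell, red cell, NK cell and monocyte lists were lowest, and those of the platelet and neutrophil lists were highest. A member that was lowest at either dose coincides with all the differences at that dose. The part of the cell markers in the results was not tested. With the 18S level as a term in the fit, 19, 25 and 50 members were called lower at 0.5, 1.0 and 3.0 Gy, and 0 lower and 0 higher between 3.0 and 1.0 Gy. Shares of all genes in that fit are not given here, so a loss of calls over the whole array cannot be told from one in the members. The 18S levels did not overlap between 3.0 and 1.0 Gy, between 3.0 and 0.5 Gy, or between control and either 0.5 or 1.0 Gy. In these comparisons the part of 18S and that of dose cannot be told apart.

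**Figure D5:**
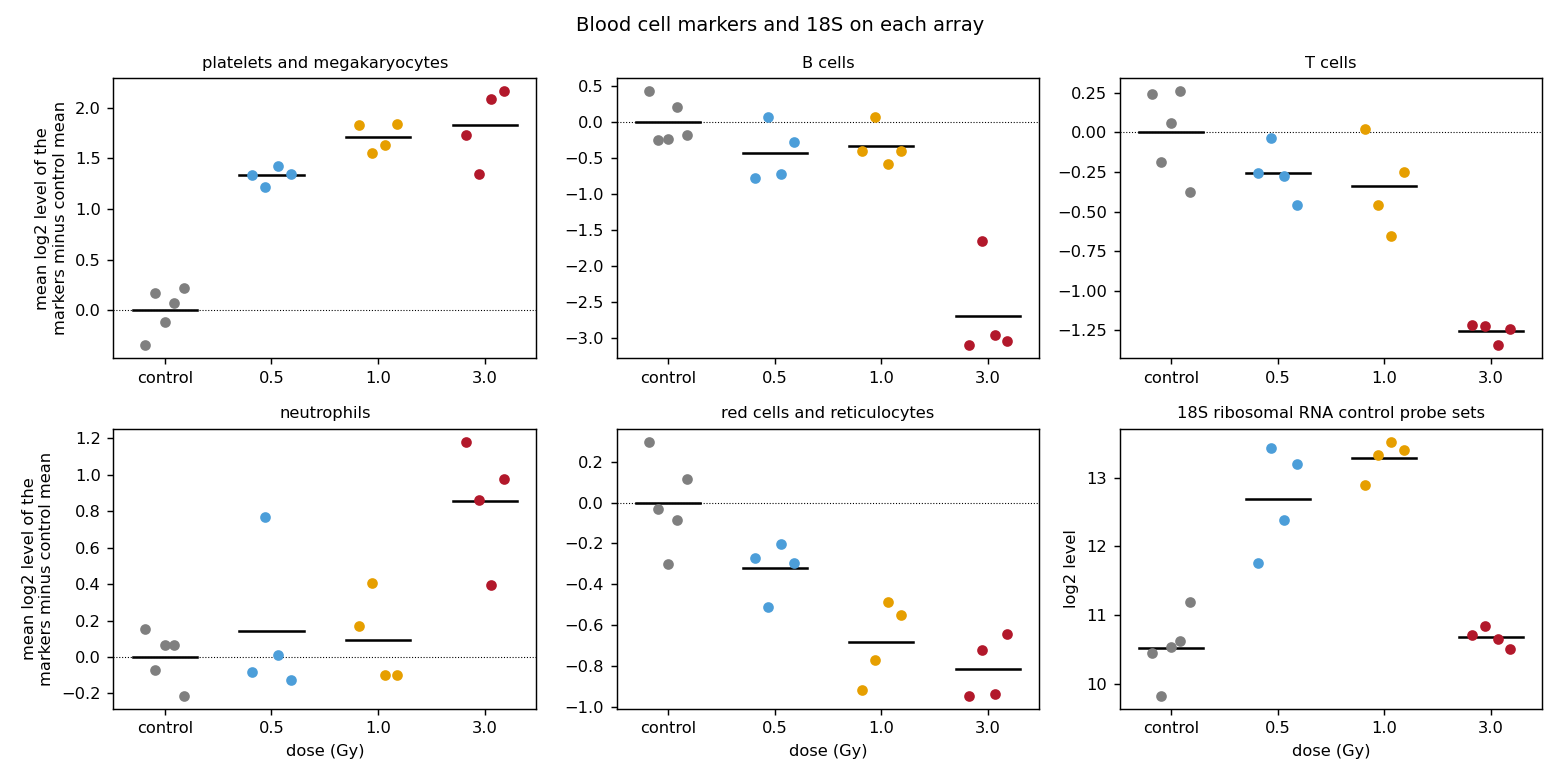
Mean log2 level of 5 blood cell marker lists, as the difference from the control mean, and log2 level of the 18S control probe sets (vertical axes) on each of the 17 arrays against dose in Gy (horizontal axis). Points are arrays and bars are group means; platelet markers lie 1.22 to 2.16 above the control mean on every irradiated array, and the B cell markers lie between -3.10 and -1.65 at 3.0 Gy.

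Genes that work beside the subunits were read from 6 lists, whose counts stand beside 5%, 8.49% and 29.2% of all genes called lower and 5.24%, 8.8% and 20% called higher at 0.5, 1.0 and 3.0 Gy. Of 16 tested enzymes of the citric acid cycle and pyruvate dehydrogenase, which supply the NADH and succinate, limma called 0, 0 and 13 lower at 0.5, 1.0 and 3.0 Gy and 0 higher at any dose. At an unadjusted p under 0.05, 3 and 1 of them were lower at 0.5 and 1.0 Gy. Fumarase, Fh1, averaged 3.67 ± 0.53 at 3.0 Gy and 5.92 ± 0.33 in controls and changed by -2.25 ± 0.21 at 3.0 Gy (limma adjusted p = 1.28e-07). Idh3b, a subunit of the NAD-dependent isocitrate dehydrogenase, changed by -1.65 ± 0.22 (limma adjusted p = 5.83e-06) and Pdhb, of pyruvate dehydrogenase, by -0.98 ± 0.13 (adjusted p = 6.97e-06) at that dose.

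Of 9 tested carriers and subunits named outside the symbol pattern, 2, 3 and 6 were lower and 0, 0 and 1 higher. Cyc1, the cytochrome c1 of complex III, changed by -0.56, -0.54 and -1.28 and Cycs, cytochrome c itself, by -0.34, -0.32 and -1.07, called at all doses in Cyc1 and at 3.0 Gy in Cycs. Assembly factors, which help build the complexes, had 1, 2 and 5 of 13 lower for complex I and 7, 7 and 13 of 26 for complexes II to V, where 1, 2 and 5 were higher. At 3.0 Gy the 5 of 13 lower and the 5 of 26 higher are near those shares of all genes. Coa5, of complex IV assembly, was higher at every dose, with 1.04 ± 0.14, 1.58 ± 0.14 and 1.75 ± 0.14 at the 3 doses (limma adjusted p = 6.34e-05, 2.37e-07 and 2.56e-08). Cox16, another complex IV assembly factor, changed by -0.76, -1.01 and -1.71, all called.

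Among 13 tested regulators of mitochondrial biogenesis, 1, 1 and 9 were lower and none was called higher. Tfam, which packages and transcribes mitochondrial DNA, averaged 3.64 ± 0.14 at 3.0 Gy and 5.43 ± 0.38 in controls and changed by -1.79 ± 0.20 at 3.0 Gy (limma adjusted p = 6.62e-07); Gabpa, a subunit of NRF-2, changed by -1.03 ± 0.16 (limma adjusted p = 2.63e-05). A single mitochondrially encoded subunit was named on the array, ND5 of complex I. ND5 measured 10.57, 10.15, 10.06, 10.21 and 9.92 in control mice, 10.74, 11.23, 11.57 and 11.22 after 0.5 Gy, 10.63, 11.27, 11.11 and 10.76 after 1.0 Gy and 10.63, 10.10, 10.75 and 10.67 after 3.0 Gy. Its 0.5 and 1.0 Gy arrays were above the controls, and the 3.0 Gy arrays overlapped them. Its changes were 1.01 ± 0.18, 0.76 ± 0.18 and 0.36 ± 0.18, with limma adjusted p = 0.00102, 0.00534 and 0.106, in the direction opposite to most nuclear-encoded subunits of that complex. The 18S level was also above control at 0.5 and 1.0 Gy, by 2.17 and 2.76, and differed from it by 0.157 at 3.0 Gy. For ND5 at 0.5 and 1.0 Gy, the part of 18S and that of dose cannot be told apart.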

How the data were processed

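Per the labels' protocols, blood was drawn into an RNA-preserving tube and 200 ng of total RNA was hybridised per array. The authors deposited log2 levels per probe set, made by RMA in R 3.3.2 per the submitters' processing notes; hybridisation batches are not stated in the sources used here. Of 45101 probe sets, 64 controls, 932 with several symbols and 9160 with none were left out of the tests. The probe set with the highest mean stood for each of 18193 genes, and 12696 genes above the 50th percentile of their array on at least 4 arrays were fitted together (limma 3.58.1 in R 4.3.3, 4 groups, 17 arrays, eBayes). Calls are at a Benjamini-Hochberg adjusted p under 0.05 over all genes fitted. The fit was tested on simulated data. The number of arrays limits the precision.

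Members and gene lists were chosen with earlier results of these data known. Members named with values are the 5 with the smallest F test p in each complex, the 5 largest falls and rises at each dose, those called against the majority of their complex, up to 8 per contrast between doses, isoform groups and catalytic core subunits. For lists, up to 3 genes with the smallest F test p are named. Alternatives were other filters, probe set choices, quantile normalization repeated on the deposited values, a replicate block, the 18S level as a term, fits on only the groups compared, array weights and fits leaving out each array. On 22 members the probe set read is of a type that can bind related transcripts.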

Additional observations from a re-analysis of the deposited data

Results flagged for a closer look

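Within a group of 4 or 5 arrays, a value was looked at again when its gap to the nearest other array took up an unusually large share of the group's range by Dixon's test, over 208 groups of arrays for the named members. Chance alone sets apart about 1 in 20 groups, and 3 values stood apart here. Cox5a was highest on 0.5 Gy replicate 4, at 11.31, with a gap of 0.843 of the range. Ndufc2 was lowest on 1.0 Gy replicate 3, at 6.58, with a gap of 0.866 of the range, and Uqcrfs1 was lowest on that same array, at 6.22, with a gap of 0.972. The calls of Ndufc2 and Uqcrfs1 at 1.0 Gy held without that array.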

How the results depend on the processing

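Leaving out each array in turn gave 11 to 45 members lower at 0.5 Gy (0 to 1 higher), 28 to 48 at 1.0 Gy (0 to 1 higher) and 41 to 54 at 3.0 Gy (3 to 7 higher). The single higher call at 0.5 Gy came without 3.0 Gy replicate 2. Between 3.0 and 1.0 Gy the range was 18 to 26 lower and 6 to 21 higher, between 3.0 and 0.5 Gy 17 to 28 lower and 2 to 12 higher, and between 1.0 and 0.5 Gy 0 to 0 in both directions; any dose gave 57 to 69 and the slope on dose 36 to 43. With the 18S level as a term, 19 members were lower at 0.5 Gy, 0 higher at 1.0 Gy, 0 lower and 0 higher between 3.0 and 1.0 Gy, and 1 lower and 0 higher between 3.0 and 0.5 Gy. Repeated quantile normalization gave 1 higher at 0.5 Gy, 9 higher at 3.0 Gy and 13 higher between 3.0 and 0.5 Gy. Array weights gave 2 higher at 0.5 Gy, 2 at 1.0 Gy, 8 at 3.0 Gy and 2 lower between 1.0 and 0.5 Gy. A fit on only the groups compared gave 1 higher at 0.5 Gy. Other counts stayed within 1.5 times. All these counts are of members, and shares of all genes in the alternative fits are not given here. The median of complex IV at 3.0 Gy, -0.07, became 0.20 with no filter, 0.020 with repeated quantile normalization, 0.0092 with array weights and between -0.12 (without control replicate 2) and 0.0061 (without 3.0 Gy replicate 2) on leaving out an array. With the 18S term, differences between 3.0 and 1.0 Gy became 0.13 in Ndufb5, 0.20 in Ndufb6, 0.012 in Ndufc2 and 0.018 in Sdhb, and Ndufb5 between 3.0 and 0.5 Gy became 0.13. Sdhc at 3.0 Gy became -0.32 as the mean of its probe sets and -0.77 on the other probe set. The causes were not tested.

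Deviations of same-numbered arrays of different groups gave mixed correlations: 11 of 24 pairs correlated above 0.1, with r from -0.4535 to 0.4949. Their median r was 0.0666, against -0.02545 for pairs with different numbers. Whether the numbers pair the mice cannot be told from these values. With the replicate number as a replicate block, 22, 31 and 44 members were called lower at 0.5, 1.0 and 3.0 Gy and 1, 1 and 6 higher.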

Other observations

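The 6 members that did not pass the filter ranged over the 17 arrays as follows, in log2 level: Ndufb4 from 1.78 to 2.51, Cox4i2 from 2.93 to 3.69, Cox7a1 from 2.12 to 2.88, Cox7b2 from 1.51 to 2.11, Cox7c from 2.24 to 3.17 and Cox8b from 2.62 to 3.47. Within the 3.0 Gy group, replicate 2 was the array nearest to the controls in several members that changed in either direction. It read 6.03 in Ndufs3, where the other 3 read 4.18 to 5.23, 11.04 in Cox5a, where they read 11.99 to 12.44, and 9.75 in Cox6b1, where they read 10.15 to 10.79. The mean of the B cell markers on that array differed from the control mean by -1.65, against -3.10 to -2.96 on the other 3. Its part in the spread of the 3.0 Gy group was not tested.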
